A study of Mus musculus with 20 samples.

Results

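The genes described here are 40 cell cycle and proliferation genes, chosen by name from textbook lists of genes that are transcribed as cells replicate their DNA or divide. All 40 were found among the 12701 genes of the count table of the proximal colon (PC), 18 of them S phase genes and 22 of them G2/M genes. Their RNA was sequenced from a segment of the PC of each of 20 mice of the inbred strain C57BL/6. All mice were placed at 3 weeks of age on the Total Western Diet (TWD), a rodent feed modelled on what Americans eat, for 6 weeks. For 3 more weeks the TWD contained resistant potato starch (RPS), labelled as raw potato starch, at 0, 2, 5, or 10%, with 5 libraries per diet and 1 mouse per library. The 0% RPS mice therefore share the TWD with every other group, and no group on a standard chow was analysed here.

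The colonic epithelium is renewed from stem cells at the crypt base, whose daughters divide in the lower crypt before they differentiate and move toward the surface. As a cell passes from G1 into S phase, E2F transcription factors turn on the genes that license origins, make nucleotides, and copy DNA. Before mitosis a second program, run through the MuvB complex with B-MYB and FOXM1, turns on the cyclins, kinases, and spindle proteins of G2 and M phase. A whole segment of colon also holds muscle, stroma, and lymphoid cells, so these are tissue levels, in which fewer cells of a type and less RNA per cell cannot be told apart.

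The promoters of the genes were read from the mouse assembly GRCm39, from 250 bases before to 50 bases after the start of each gene's canonical GENCODE transcript, because the genes moved together between libraries (below) and these programs are known to act there. Each 300-base window was searched on both strands for TTTGAA (the core of the cell cycle genes homology region, CHR, to which MuvB binds), for CCAAT (the NF-Y box), and for TTTCCCGC or TTTGGCGC (strict E2F sites). Matches of different motifs overlapped in 0 of the 40 windows, and a match is a description of the letters and not evidence of binding. Shown in capitals are the matches in 2 G2/M genes and 2 S phase genes that hold several of them, each on its coding strand, where ATTGG is CCAAT on the other strand. They are Cdk1 at chr10:69188719-69189018 (minus strand), Ccnb2 at chr9:70328825-70329124 (minus strand), Mcm6 at chr1:128287403-128287702 (minus strand), and E2f1 at chr2:154411763-154412062 (minus strand).
Cdk1 promoter: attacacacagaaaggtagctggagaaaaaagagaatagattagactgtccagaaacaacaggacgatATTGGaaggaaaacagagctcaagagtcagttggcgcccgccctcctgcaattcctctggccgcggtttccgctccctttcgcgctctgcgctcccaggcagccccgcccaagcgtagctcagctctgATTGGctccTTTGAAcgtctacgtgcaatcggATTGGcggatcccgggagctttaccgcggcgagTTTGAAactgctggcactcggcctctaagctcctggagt
Ccnb2 promoter: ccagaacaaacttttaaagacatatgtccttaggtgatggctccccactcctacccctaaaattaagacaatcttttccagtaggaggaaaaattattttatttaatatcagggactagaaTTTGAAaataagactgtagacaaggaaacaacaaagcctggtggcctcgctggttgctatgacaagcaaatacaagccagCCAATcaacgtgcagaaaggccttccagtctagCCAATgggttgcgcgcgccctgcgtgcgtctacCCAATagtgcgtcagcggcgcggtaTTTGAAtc
Mcm6 promoter: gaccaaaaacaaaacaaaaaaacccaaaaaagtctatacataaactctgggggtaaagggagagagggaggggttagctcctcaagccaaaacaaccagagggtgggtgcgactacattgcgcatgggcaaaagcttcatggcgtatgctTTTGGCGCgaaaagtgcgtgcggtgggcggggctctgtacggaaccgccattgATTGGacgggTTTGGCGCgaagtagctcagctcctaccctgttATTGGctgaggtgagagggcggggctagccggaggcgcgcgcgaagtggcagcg
E2f1 promoter: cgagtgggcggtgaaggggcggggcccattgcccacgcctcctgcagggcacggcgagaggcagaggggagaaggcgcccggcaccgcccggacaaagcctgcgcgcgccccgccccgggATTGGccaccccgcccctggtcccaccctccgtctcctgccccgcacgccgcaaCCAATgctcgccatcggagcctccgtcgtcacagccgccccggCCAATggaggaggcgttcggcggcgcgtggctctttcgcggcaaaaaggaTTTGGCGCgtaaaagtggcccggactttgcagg

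The CHR core stood in 12 of the 22 G2/M promoters (54.5%), in 2 of the 18 S phase promoters (11.1%; Mcm2 and Rrm2), and in 13.4% of the promoters of all 11748 protein-coding genes of the table that were read. The strict E2F site showed the opposite distribution. It was found in 7 of the 18 S phase promoters (38.9%), namely Mcm3, Mcm4, Mcm5, Mcm6, Cdc6, Cdt1, and E2f1, in 0 of the 22 G2/M promoters, and in 2.74% of all promoters. The CCAAT box was common to both groups, at 66.7% of S phase and 72.7% of G2/M promoters against 39% of all. A CHR core and a CCAAT box occurred together in 11 of the 22 G2/M promoters (50%) and in 5.64% of all promoters. In Cdk1 a CHR core began 11 bases after the start and a CCAAT box 22 bases before it, and in Top2a, Kif11, Prc1, and Ube2c a CHR core likewise lay within 12 bases after the start. In 10 genes (Ccna2, Aurka, Tpx2, Nusap1, Birc5, Mcm7, Pcna, Tyms, Ung, and Ccne1) these letters were not in the window.

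**Figure D1:**
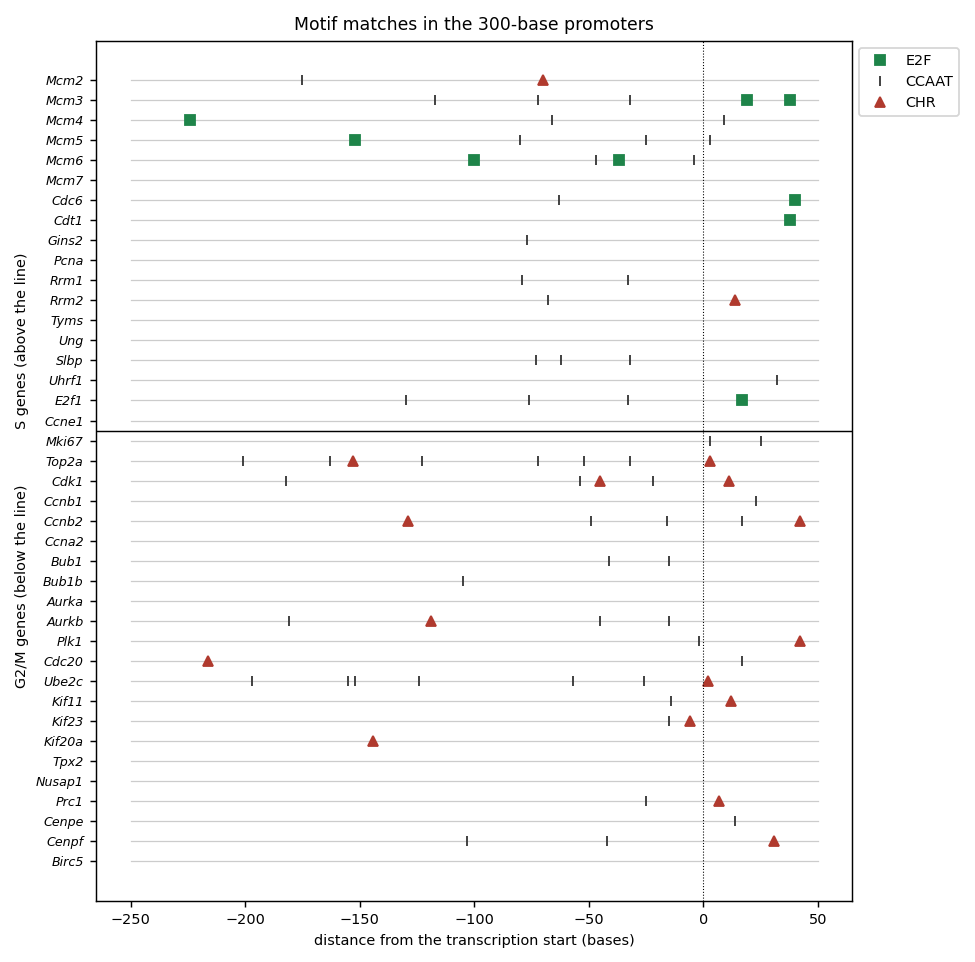
Matches of the CHR core (red triangles), the CCAAT box (black ticks), and the strict E2F sites (green squares) by distance in bases from the transcription start, for the 18 S phase genes above the line and the 22 G2/M genes below it. The E2F squares are confined to 7 of the S phase genes and the CHR triangles fall on 12 G2/M genes and 2 S phase genes.

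The libraries held 20581013 to 35083751 counts, with a median of 26354926, and 3 counts, taken as the detection limit for counting error only, corresponded to 0.0855 to 0.146 CPM, the count scaled to library size. All 40 genes were well above this limit, since the lowest count of any of them in any library was 79, for Ccne1. The labelled tissue held its epithelial markers at high levels in every library, all 8 of 8 listed, with a mean log2 level of at least 15.03. The library of 0% RPS replicate 2 stood apart from its diet. Its mean distance to the other 4 was 38.5 against 19.0 to 27.4 for the remaining 19 libraries. Values without it are given for some of the results. Per kilobase of transcript, the level of Pcna, the sliding clamp of DNA polymerase, was the highest of the 40 at 1671 normalised counts, followed by the mitotic kinase Plk1 at 1093 and the ubiquitin-conjugating enzyme Ube2c at 964. The lowest levels per kilobase were those of Gins2, a subunit of the replicative helicase, at 37.9, the origin licensing factor Cdc6 at 47.1, and the centromere proteins Cenpf at 48.2 and Cenpe at 49.4. Normalised counts are counts divided by a factor for library size.

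No member passed the test at any level of RPS. Differences were tested with DESeq2 over all genes, and a gene was called at an adjusted p of 0.05 or less with a fold change of 1.5 or more. At 2% RPS 0 of 40 members were called against 0.0239% of the 12561 genes tested, at 5% RPS 0 of 40 against 0.438%, and at 10% RPS 0 of 40 against 0.9%. With no fold threshold the count of members was again 0 at 2% (all genes 0.0239%), 5% (all genes 1.9%), and 10% RPS (all genes 4.6%). It was also 0 for 5% against 2% RPS (all genes 0%), 10% against 2% RPS (all genes 0.143%), and 10% against 5% RPS (all genes 0.0159%), for a linear trend on the percentage of RPS (all genes 4.29%), and for any difference among the 4 diets (all genes 2.38%).

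By edgeR the counts of members called at the same adjusted p were 0 at 2% RPS (all genes 0%), 0 at 5% RPS (all genes 0.089%), 0 at 10% RPS (all genes 0.987%), 0 for the trend (all genes 1.33%), and 0 over the 4 diets (all genes 0.0566%). At an unadjusted p under 0.05 in DESeq2, 0 members passed at 2% RPS (all genes 8.7%), 2 at 5% RPS (all genes 16.6%; Slbp and Ung), 3 at 10% RPS (all genes 18.8%; Birc5, Cdk1, and Pcna), 1 in the trend (all genes 19.1%; Cdk1), and 1 over the 4 diets (all genes 14.3%; Slbp). These shares lay below the background in each case, a comparison that was not tested. The median member varied more between mice than the median gene, and the members moved together (below), so they are not independent genes. With edgeR the unadjusted counts were 0 at 2%, 2 at 5% (Slbp and Ung), 1 at 10% RPS (Cdk1), 1 in the trend (Cdk1), and 1 over the diets (Slbp). The smallest DESeq2 adjusted p of any member was 0.614 at 2%, 0.107 at 5% (Slbp), 0.141 at 10% RPS (Cdk1), and 0.172 in the trend (Cdk1). Among the alternative settings, Cdk1 was called at 10% RPS when only the 2 diets were fitted (DESeq2 adjusted p = 0.0333), and Slbp at 5% RPS when the library of 10% RPS replicate 3 was left out (DESeq2 adjusted p = 0.0491).

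The precision sets what these counts can show. The SE of a member's log2 fold change was 0.20 in the median, from 0.073 for Slbp to 0.326 for Uhrf1 at 2% RPS. At 10% RPS the 95% interval lay wholly within 1.5-fold in either direction for 22 of 40 members, and for the other 18 its upper bound reached 1.5-fold higher. At 5% RPS 23 intervals lay within 1.5-fold and at 2% RPS 31. Upper bounds were under 2-fold for 40, 38, and 39 of the 40 members at 2, 5, and 10% RPS. A 1.5-fold increase was therefore not excluded by the interval for 7, 15, and 18 of the 40 members at 2, 5, and 10% RPS, while no lower bound at 10% RPS reached a 1.5-fold decrease.

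**Figure D2:**
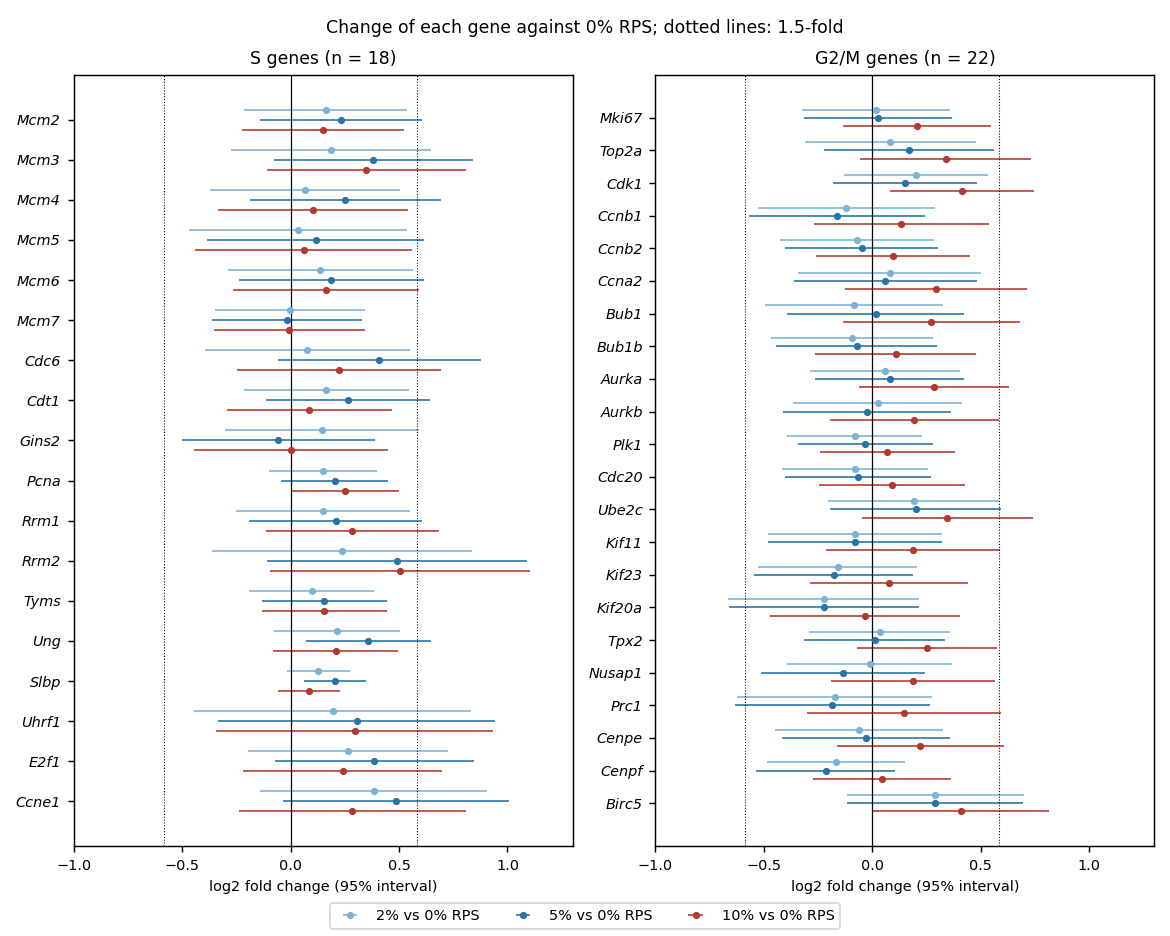
Log2 fold change of each gene against 0% RPS with its 95% interval, at 2% (light blue), 5% (dark blue), and 10% RPS (red), for the 18 S phase genes on the left and the 22 G2/M genes on the right, with dotted lines at 1.5-fold. Red points lie to the right of 0 for 38 of the 40 genes, and the intervals of 37 of the 40 include 0 at 10% RPS.

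The signs of the fold changes are given by phase, as a description without a test, since no single gene was called. At 2% RPS 26 of 40 members had a log2 fold change above 0 against 47.6% of all genes, made up of 17 of 18 S phase genes and 9 of 22 G2/M genes. At 5% RPS it was 25 of 40 against 47.4%, again 16 of 18 S phase and 9 of 22 G2/M genes. At 10% RPS 38 of 40 lay above 0 against 50%, with 17 of 18 S phase and 21 of 22 G2/M genes. The exceptions at 10% RPS were Mcm7, a helicase subunit, at -0.01 and Kif20a, a mitotic kinesin, at -0.04. The members rise and fall together from mouse to mouse, so these counts are not counts of independent genes and were not tested.

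The median log2 fold change of the S phase genes was 0.15 at 2%, 0.24 at 5%, and 0.19 at 10% RPS, whereas that of the G2/M genes was -0.07, -0.03, and 0.19. For all genes tested the median was within 0.01 of 0 at every dose. Between 5% and 10% RPS, a comparison that shares its 10% RPS libraries with the one above, 28 of 40 members were above 0 against 50.8% of all genes, which were 6 of 18 S phase genes and 22 of 22 G2/M genes. The medians there were -0.04 for S phase and 0.23 for G2/M genes. Individual G2/M genes in that comparison ranged from 0.10 for Plk1 to 0.33 for Prc1, with a DESeq2 adjusted p of 1.0 for each.

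A level per library was taken as the mean of log2(normalised count + 1) over the genes of a phase. For S phase it was 9.04, 9.18, 9.51, 9.46, and 8.94 in replicates 1 to 5 of 0% RPS, 9.36, 9.49, 8.96, 9.12, and 9.88 at 2%, 9.86, 9.71, 9.63, 8.93, and 9.13 at 5%, and 8.99, 9.21, 9.69, 9.70, and 9.46 at 10% RPS. For G2/M it was 9.07, 9.46, 9.64, 9.54, and 9.27 at 0%, 9.18, 9.71, 8.83, 9.19, and 9.81 at 2%, 9.81, 9.57, 9.24, 9.04, and 9.13 at 5%, and 9.51, 9.42, 9.68, 9.62, and 9.77 at 10% RPS. The diets overlapped in both levels, and within each of the 4 diets mice of low and high S phase level occurred side by side. The 10% RPS mice had no low G2/M level: their lowest, 9.42, exceeded the 2 lowest libraries of 0% RPS, the 3 lowest of 2%, and the 3 lowest of 5% RPS. Replicates 4 and 5 of 10% RPS (G2/M 9.62 and 9.77) and replicate 5 of 2% RPS (9.81) have label numbers apart from the rest. The levels by diet are not given without these libraries.

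The difference between the S phase and G2/M levels was -0.17 ± 0.13 at 0%, 0.02 ± 0.16 at 2%, 0.10 ± 0.19 at 5%, and -0.19 ± 0.24 at 10% RPS (mean ± SD, n = 5). Relative to 0% RPS the difference was thus 0.18 higher at 2%, 0.26 higher at 5%, and -0.02 at 10% RPS, beside a within-diet SD of 0.19. It exceeded the largest 0% RPS value, -0.02, in 3 libraries of 2% RPS, in 4 of 5%, and in 2 of 10% RPS. The extremes were 0.39 in replicate 3 of 5% RPS and -0.52 in replicate 1 of 10% RPS, a mouse with one of the lowest S phase levels and an intermediate G2/M level. Without 0% RPS replicate 2 the values relative to 0% RPS were 0.16, 0.23, and -0.05 at 2, 5, and 10% RPS.

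The S phase level was 0.14, 0.23, and 0.18 higher than at 0% RPS at 2, 5, and 10% RPS, and the G2/M level was -0.05, -0.04, and 0.21 from it. All of these were smaller than the within-diet SD, 0.33 for S phase and 0.29 for G2/M. Leaving out single libraries moved the S phase value at 2% RPS between 0.01 and 0.24, and turned the sign of the G2/M value at 2% (-0.17 to 0.08) and at 5% RPS (-0.15 to 0.04). The spread of the G2/M level between mice was 0.13 (SD) at 10% RPS against 0.23, 0.41, and 0.32 at 0, 2, and 5% RPS, a difference that was not tested. Measured relative to the epithelial marker level of the same library, the S phase values were 0.01, 0.13, and 0.07 and the G2/M values -0.17, -0.13, and 0.09 at 2, 5, and 10% RPS.

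**Figure D3:**
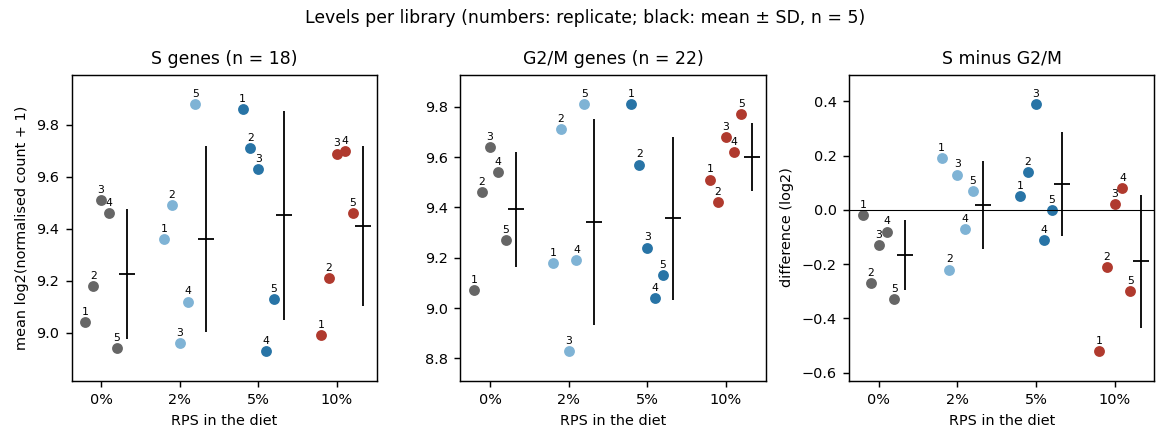
Mean log2(normalised count + 1) of the 18 S phase genes (left), of the 22 G2/M genes (middle), and their difference (right) in each library by RPS in the diet, with replicate numbers beside the points and the mean ± SD of 5 libraries in black. The diets overlap in each panel, the G2/M levels of 10% RPS lie between 9.42 and 9.77, and the difference is below 0 in all 5 libraries of 0% RPS.

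Mki67, the marker antigen Ki-67 of cycling cells that coats mitotic chromosomes, and Top2a, the topoisomerase that disentangles sister chromatids, stand for mitotic chromatin. Normalised counts of Mki67 in replicates 1 to 5 were 1964, 2741, 3064, 2657, and 2265 at 0% RPS, 2280.2, 2911, 1795, 2292, and 3572 at 2%, 3543, 2858, 2568, 1916, and 2048 at 5%, and 2885, 2593, 3043, 2960.2, and 3140.1 at 10% RPS. The 10% RPS libraries were tightly grouped, with 1 of them above the 0% RPS range. Mki67 had a log2 fold change of 0.02 ± 0.17 (SE) at 2%, 0.03 ± 0.17 at 5%, and 0.20 ± 0.17 at 10% RPS (DESeq2 adjusted p = 0.535 at 10%), and at 5% RPS its sign turned with several settings. For Top2a it was 0.34 ± 0.20 at 10% RPS (DESeq2 adjusted p = 0.343), with 4 of 5 libraries above the highest of 0% RPS.

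Cdk1, the kinase that drives entry into mitosis, had the smallest adjusted p of the members at 10% RPS. Its normalised counts were 563, 697, 660.0, 669, and 519 at 0% RPS, 630.2, 843, 528, 599, and 973 at 2%, 919, 802, 621, 573, and 534 at 5%, and 852, 666, 936, 800.4, and 882 at 10% RPS. At 10% RPS 4 of 5 libraries lay above all 0% RPS libraries and replicate 2 lay among them. The log2 fold change was 0.20 ± 0.17 (SE) at 2%, 0.15 ± 0.17 at 5%, and 0.41 ± 0.17 at 10% RPS, with a DESeq2 adjusted p of 0.753, 0.683, and 0.141. Its activating cyclins had lower values at 10% RPS, 0.29 ± 0.22 for Ccna2, 0.13 ± 0.21 for Ccnb1, and 0.10 ± 0.18 for Ccnb2. Cdk1 overlaps Ank3 and Ccna2 overlaps Exosc9 on the opposite strand, and of the 50-base windows of Ccnb1 18.19% also occur in another gene, mostly a pseudogene, so that some of their reads could have been assigned otherwise.

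Of the mitotic kinases, Plk1 acts at centrosomes and kinetochores, Aurka at spindle poles, Aurkb in the chromosomal passenger complex, and Bub1 and Bub1b in the spindle checkpoint. Plk1 had normalised counts of 1694, 2773, 2381, 2841, and 2569 at 0% RPS, 1939, 2530.3, 1816, 2330.0, and 2964 at 2%, 2624, 2512, 2084, 2756, and 2013 at 5%, and 2138, 2381, 2112, 3118, and 3112 at 10% RPS. Replicates 4 and 5 of 10% RPS were the highest of the 20 libraries, and the other 3 of that diet lay within the range of 0% RPS. Its log2 fold change at 10% RPS was 0.07 ± 0.16 (SE; DESeq2 adjusted p = 0.846), and it was -0.15 when 3 libraries with label numbers apart from the rest were left out, 2 of them replicates 4 and 5 of 10% RPS. The other 4 kinases had 0.11 ± 0.19 for Bub1b, 0.19 ± 0.20 for Aurkb, 0.27 ± 0.21 for Bub1, and 0.29 ± 0.18 for Aurka at 10% RPS, all with a DESeq2 adjusted p of 0.362 or more.

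Cdc20 activates the anaphase-promoting complex (APC/C), and Ube2c passes ubiquitin to its substrates. Counts of Cdc20 were 728, 763, 994, 842, and 832 at 0% RPS, 684, 1075, 497, 677, and 1006 at 2%, 1003, 862, 710.1, 606, and 792 at 5%, and 817, 815, 980.0, 828, and 987 at 10% RPS. The 2% RPS mice spanned the widest range and the 10% RPS mice all lay within the 0% RPS range, 3 of them below its mean of 832. Log2 fold changes at 2, 5, and 10% RPS were -0.08 ± 0.17, -0.07 ± 0.17, and 0.09 ± 0.17 (SE) for Cdc20. For Ube2c the value at 10% RPS was 0.35 ± 0.20 (DESeq2 adjusted p = 0.333).

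The spindle and midzone genes encode the kinesins Kif11, Kif23, and Kif20a, the spindle assembly factor Tpx2, and the microtubule-bundling proteins Nusap1 and Prc1. Kif11, the motor that pushes the spindle poles apart, had 484, 672, 763, 784.5, and 533 normalised counts at 0% RPS, 555, 651, 412, 512, and 932 at 2%, 863, 733, 524, 479, and 458 at 5%, and 657, 673, 736, 800.4, and 822 at 10% RPS. The 2 highest libraries were replicate 5 of 2% and replicate 1 of 5% RPS, and at 10% RPS 2 of 5 exceeded the 0% RPS range. Its log2 fold changes were -0.08 ± 0.20 (SE), -0.08 ± 0.20, and 0.19 ± 0.20 at 2, 5, and 10% RPS. Of the 6 genes 1 was above 0 at 2% and at 5% RPS, which was Tpx2 both times at 0.03 and 0.01, and 5 were above 0 at 10% RPS. From 5% to 10% RPS this group had a median of 0.26, with 0.33 ± 0.23 for Prc1 and 0.32 ± 0.19 for Nusap1.

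Birc5, survivin of the chromosomal passenger complex, was grouped with the centromere genes Cenpe, a kinetochore motor, and Cenpf. Normalised counts of Birc5 were 689, 784.1, 869, 591, and 630.3 at 0% RPS, 933, 1124, 549.5, 656, and 1095 at 2%, 1127, 1026, 900.1, 542, and 754 at 5%, and 1008, 722, 1244, 862, and 896 at 10% RPS. In each RPS diet 3 of 5 libraries lay above the highest 0% RPS library. Birc5 stood above 0% RPS by a log2 fold change of 0.29 ± 0.21 (SE) at 2%, 0.29 ± 0.21 at 5%, and 0.41 ± 0.21 at 10% RPS (DESeq2 adjusted p = 0.258 at 10%). Cenpe and Cenpf had 0.22 ± 0.20 and 0.05 ± 0.16 at 10% RPS.

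The largest S phase group licenses and fires replication origins: Mcm2 to Mcm7 form the helicase ring, Cdc6 and Cdt1 load it, and Gins2 belongs to the complex that activates it. Mcm2 counts were 709, 759, 957, 964, and 629 at 0% RPS, 879.7, 930.3, 657, 803, and 1228 at 2%, 1163, 1103, 1040.3, 668, and 748.3 at 5%, and 628, 759, 1061, 1096, and 914 at 10% RPS. At 5% RPS 3 mice were above and 2 within the range of 0% RPS, and at 10% RPS 2 were above and 1 just below it. The log2 fold change of Mcm2 was 0.16 ± 0.19 (SE), 0.23 ± 0.19, and 0.15 ± 0.19 at 2, 5, and 10% RPS. The other 5 subunits of the ring ranged from -0.02 for Mcm7 to 0.38 for Mcm3 at 5% RPS, and from -0.01 for Mcm7 to 0.35 for Mcm3 at 10% RPS. Mcm7 shares 12.57% of its 50-base windows with other genes, mostly with a pseudogene, and overlaps Cops6 on the opposite strand. It differed least among the diets of all 40 members, with 0.207% of its variance between diets. Cdc6 had 0.41 ± 0.24 at 5% and 0.22 ± 0.24 at 10% RPS, and Gins2 had -0.06 ± 0.23 and 0.00 ± 0.23.

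Rrm1 and Rrm2 are the subunits of ribonucleotide reductase, Tyms makes thymidylate, and Pcna holds the polymerase on DNA. Rrm2 had the largest fold change of the members at 10% RPS. Its normalised counts were 400.4, 446, 665, 448, and 298 at 0% RPS, 513, 580.3, 273, 398, and 897 at 2%, 1023, 757, 703.1, 310.5, and 377 at 5%, and 481, 498, 828, 704, and 696 at 10% RPS. Rrm2 was also the most variable member, with 3.75 times as many counts in the highest library as in the lowest, and the mice of 5% RPS fell into 3 high and 2 low values. Its log2 fold change was 0.24 ± 0.31 (SE) at 2%, 0.49 ± 0.31 at 5%, and 0.51 ± 0.31 at 10% RPS, with a DESeq2 adjusted p of 0.353 at 10% RPS. Rrm1 and Tyms had 0.29 ± 0.20 and 0.16 ± 0.15 at 10% RPS.

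Pcna, named here after its values were seen, had 2310.3, 2112, 2561, 2525, and 1884 normalised counts at 0% RPS, 2279, 2616, 2486, 2146, and 3118 at 2%, 3198, 2935, 2639.5, 2196, and 2150.3 at 5%, and 2496, 2388, 3082, 3025, and 2590.1 at 10% RPS. Of the 10% RPS libraries 3 were above and 2 within the range of 0% RPS. Its log2 fold change was 0.15 ± 0.13 (SE), 0.20 ± 0.13, and 0.25 ± 0.13 at 2, 5, and 10% RPS (DESeq2 adjusted p = 0.247 at 10%). Of its 50-base windows 17.42% also occur in other transcripts, mostly those of a pseudogene.

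Slbp binds the stem-loop of histone mRNAs, Ung removes uracil from DNA, and Uhrf1 guides DNA methylation to newly copied strands. Slbp and Ung were chosen after their values were seen, as the members with the smallest p at 5% RPS. Slbp had 1316, 1368, 1333, 1313, and 1202 normalised counts at 0% RPS, 1356, 1454, 1393, 1352, and 1586 at 2%, 1649, 1475, 1449, 1478, and 1484 at 5%, and 1233, 1311, 1623, 1478, and 1294 at 10% RPS. All 5 libraries of 5% RPS lay above all 5 of 0% RPS, and at 10% RPS 2 of 5 did. Slbp was the only member whose 5% RPS libraries all did so. The share of all genes separated in this way was not computed. The log2 fold change was 0.21 ± 0.07 (SE) at 5% RPS (DESeq2 adjusted p = 0.107; edgeR adjusted p = 0.176) and 0.09 ± 0.07 at 10% RPS. Slbp also varied least between mice of a diet, with an SD of 0.11 on the log2 scale.

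For Ung the counts were 459.7, 453, 533, 537, and 428 at 0% RPS, 561, 566, 424, 542, and 701.2 at 2%, 687, 636, 671, 528, and 567.8 at 5%, and 376, 506, 713, 594, and 598 at 10% RPS. At 5% RPS 4 of 5 libraries exceeded the 0% RPS range. The log2 fold change was 0.36 ± 0.15 (SE; DESeq2 adjusted p = 0.186) at 5% and 0.21 ± 0.15 at 10% RPS. Uhrf1 had 742, 790.3, 1158, 1237, and 603 normalised counts at 0% RPS, 996, 1099, 634, 877, and 1581 at 2%, 1645, 1307, 1345, 540.3, and 762 at 5%, and 645, 814, 1372, 1466, and 1265 at 10% RPS. The RPS diets each held mice both above and within or below the 0% RPS range. Its log2 fold change was 0.19 ± 0.33 (SE) at 2%, 0.31 ± 0.33 at 5%, and 0.30 ± 0.33 at 10% RPS.

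E2f1, the activating E2F factor, and Ccne1, cyclin E1 of the kinase that starts S phase, stand for the switch from G1. E2f1 counts were 181, 235, 248, 262, and 174 at 0% RPS, 262, 260.5, 211, 220.4, and 372 at 2%, 348, 328, 368, 178, and 218 at 5%, and 161, 212, 364, 338, and 228 at 10% RPS. At 5% RPS 3 mice lay well above and 2 within the range of 0% RPS, and at 10% RPS replicate 1 was the lowest of all 20 libraries. The log2 fold change of E2f1 was 0.27 ± 0.24 (SE), 0.39 ± 0.23, and 0.24 ± 0.23 at 2, 5, and 10% RPS. For Ccne1 it was 0.38 ± 0.27, 0.48 ± 0.27, and 0.28 ± 0.27, with a DESeq2 adjusted p of 0.343 or more.

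**Figure D4:**
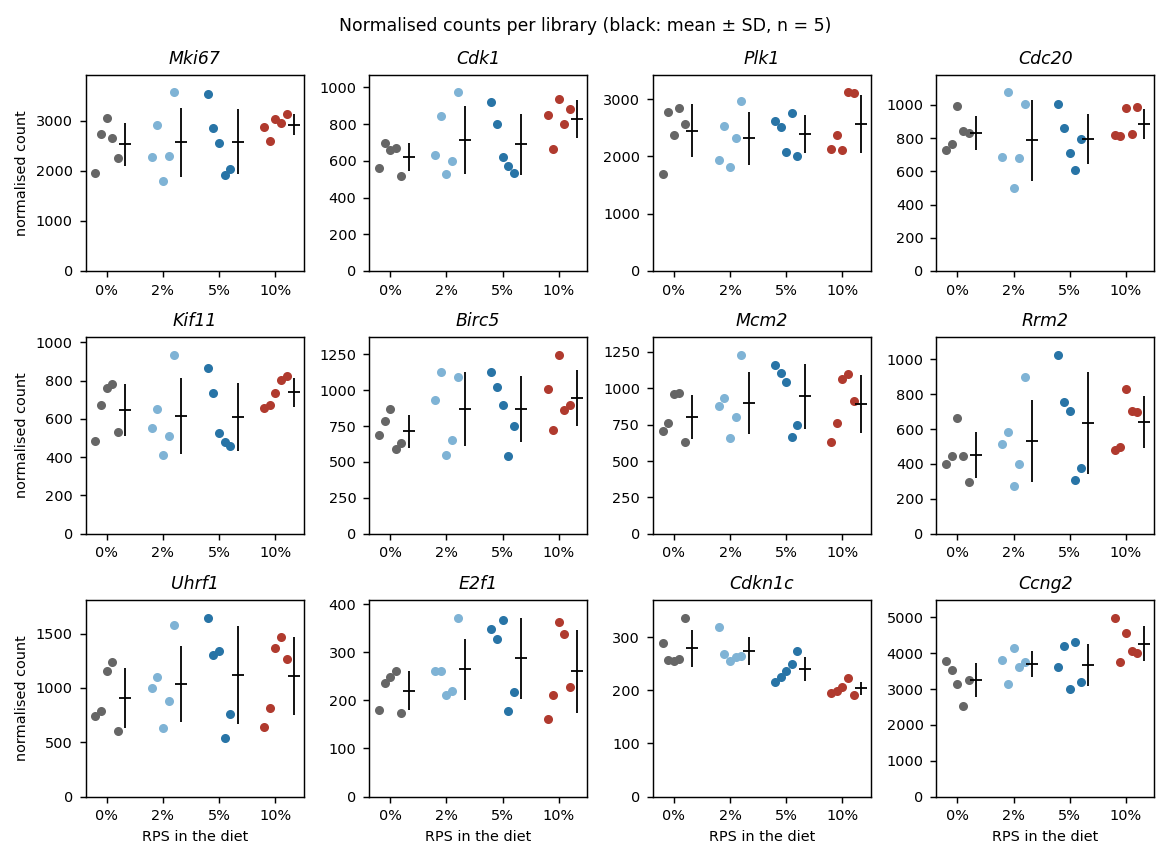
Normalised counts per library by RPS in the diet for the 10 members that stand for the role groups and for Cdkn1c and Ccng2, with the mean ± SD of 5 libraries in black and each vertical axis starting at 0. The diets overlap for each of the 10 members. The 5 libraries of 10% RPS lie below all 5 of 0% RPS for Cdkn1c, which is shown because it was called.

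The members differed far more between mice than between diets. The SD between mice of a diet was 0.34 in the median on the log2 scale (S phase 0.37, G2/M 0.33), against 0.154 over 12348 genes whose mean reached 10 normalised counts. The share of variance that lay between the diet means was 13.0% for the median member and 17.7% for the median of all genes. With 5 libraries per diet, diet means differ by sampling alone, so this share is above 0 without any effect of diet. The share expected without an effect was not computed, and 13.0% is not read as an effect of diet. Replicate 5 of 2% RPS was the highest library for 15 members and replicate 1 of 5% RPS for 13, and for 19 members these were the 2 highest libraries. Replicate 3 of 2% RPS was the lowest library for 15 of the 22 G2/M genes and 1 S phase gene, and replicate 4 of 5% RPS for 7 S phase and 4 G2/M genes. Mice of high and low proliferation gene levels thus ate the same diet.

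The members moved together between mice. After the mean of each diet was removed, the correlation over the 20 libraries was above 0 in 780 of 780 pairs of members (100%), with a median r of 0.77, whereas over all pairs of genes the median was -0.003 and 49.7% were above 0. It was 0.87 within the S phase genes, 0.83 within the G2/M genes, and 0.71 between the phases. These values describe genes measured in the same libraries. Members also moved with the other replication genes (median r 0.72) and the other mitosis genes (0.78), less with G1 regulators (0.35) and goblet cell markers (0.36), and near 0 with markers of crypt base (0.13), surface colonocytes (0.07), and macrophages (-0.04). With smooth muscle markers the median was -0.20, and with Cd79a and Cd79b, the 2 of 10 B cell markers in the table, 0.29.

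**Figure D5:**
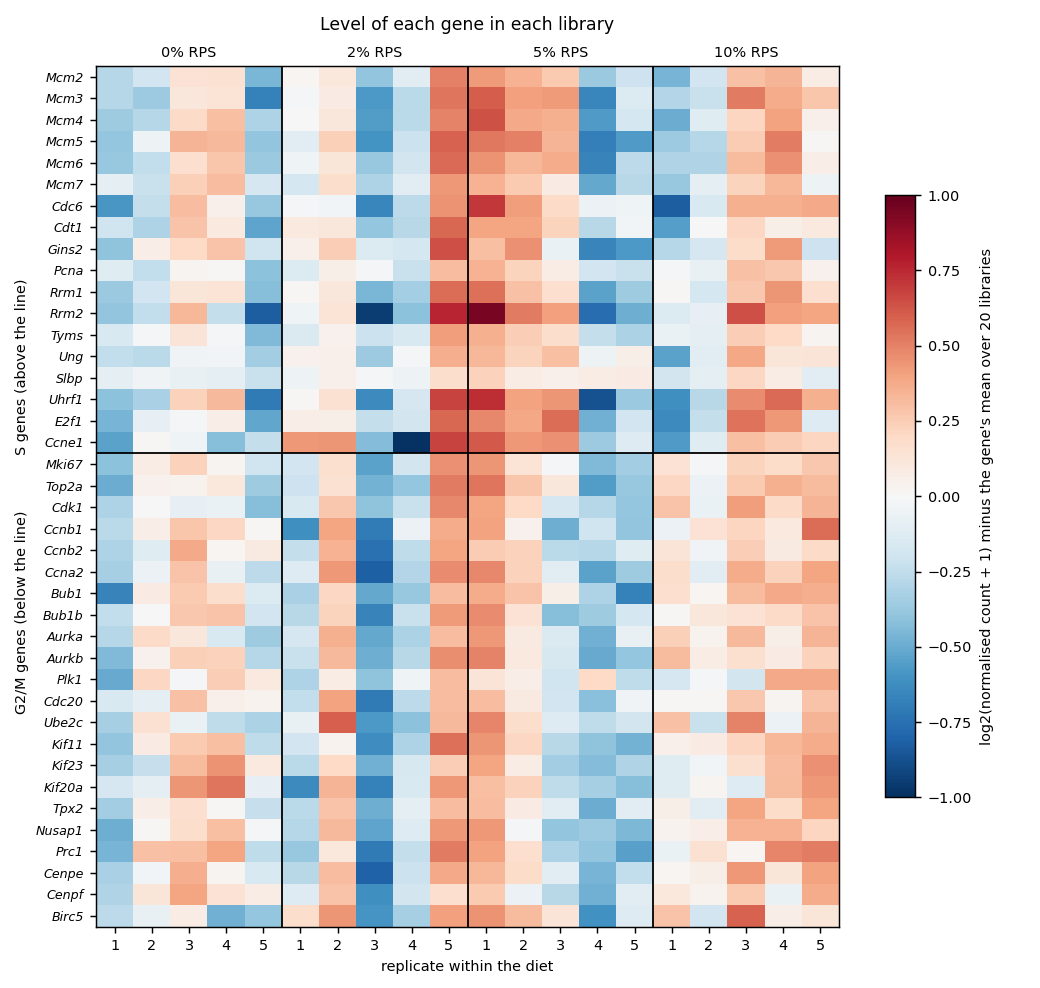
Level of each gene (rows, S phase above the line and G2/M below it) in each of the 20 libraries (columns, by diet and replicate), as log2(normalised count + 1) minus the mean of the gene over all libraries, from -1 (blue) to 1 (red). Whole columns are red or blue, as in replicates 3 and 5 of 2% RPS and replicates 1 and 4 of 5% RPS, and columns of both colours occur within the 2% and 5% RPS diets.

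Tissue composition was read from markers of the cell types a colon segment holds. Of the epithelial markers 7 of 8 were above 0 at 10% RPS, and the mean log2 level of the list ranged from 15.03 to 15.25 at 0% and from 15.07 to 15.42 at 10% RPS. The goblet cell list, with 7 of 7 above 0, ranged from 14.75 to 15.08 at 0% and from 15.11 to 15.57 at 10% RPS. The smooth muscle list had 0 of 9 above 0 and ranged from 13.31 to 14.56 at 0% and from 13.37 to 14.08 at 10% RPS. The B cell pair had 2 of 2 above 0 and ranged from 4.13 to 6.55 and from 5.44 to 6.74. At 0% RPS the values 14.56 and 6.55 were those of replicate 2, the library that stood apart. Without it the highest 0% RPS values were 13.85 and 5.94, and the count of 0 of 9 is not given without it. The crypt base list had 3 of 9 above 0 and ranged from 9.81 to 10.12 at 0% and from 9.62 to 10.03 at 10% RPS, and the surface colonocyte list had 5 of 7 above 0 and ranged from 12.97 to 13.97 and from 13.29 to 14.17. Lck, the only 1 of 8 T cell markers in the table, had a mean log2 level of 7.32 at 0% and 7.61 at 10% RPS (within-diet SD 0.15). The germinal centre (2 of 6 in the table), plasma cell (5 of 6), and macrophage (8 of 8) lists had means of 8.81, 9.01, and 8.43 at 0% RPS. At 10% RPS these means were 8.86, 9.11, and 8.40 (within-diet SD 0.17, 0.32, and 0.28). Replicate 2 was the highest 0% RPS library for the Lck, plasma cell, and macrophage levels, at 7.62, 9.89, and 9.25. Of the crypt base markers Smoc2 fell by 0.42 on the log2 scale (DESeq2 adjusted p = 0.0208; edgeR adjusted p = 0.0707), and Epcam rose by 0.19 (DESeq2 adjusted p = 0.00666; edgeR adjusted p = 0.095), while Krt20 of surface colonocytes rose by 0.47 (DESeq2 adjusted p = 0.0193; edgeR adjusted p = 0.08) and Spdef of goblet cells by 0.46 (DESeq2 adjusted p = 0.0493; edgeR adjusted p = 0.117). These 4 were named after their values were seen, and none was called with the fold threshold. Without it 4.6% of all genes were called at 10% RPS, and the number of listed markers called is not given. With the epithelial, smooth muscle, or B cell level as a covariate 0 members were called, as without it, and how far composition contributes to the levels of the members was not tested beyond this.

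Other genes of the cell cycle were read from 4 further lists. Of the other mitosis genes 44 of 51 and of the other replication genes 37 of 40 were in the table, and 0 of either were called by DESeq2 at any RPS level against 0% RPS, with or without the fold threshold (all genes up to 0.9% and 4.6%). The median log2 fold change at 2, 5, and 10% RPS was 0.01, -0.01, and 0.19 for the other mitosis genes, and 0.09, 0.10, and 0.11 for the other replication genes. From 5% to 10% RPS 40 of 44 mitosis genes and 16 of 37 replication genes were above 0 (50.8% of all genes), with medians of 0.21 and -0.02. Of 19 G1 regulators in the table, among them the D cyclins and their kinases, 0 were called by DESeq2 on the same terms. Of 16 inhibitors of proliferation 2 were called at 10% RPS without a fold threshold (all genes 4.6%), 1 lower and 1 higher.

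The lower inhibitor was Cdkn1c, p57Kip2, which binds and blocks cyclin-CDK complexes (chr7:143012069-143014806, minus strand, GRCm39). It overlaps 4933417O13Rik on the same strand and Gm44732 on the opposite strand, so that some of its reads could have been assigned otherwise. Cdkn1c had 288, 256, 254.5, 258, and 336 normalised counts at 0% RPS, 318, 268, 254.3, 263, and 265 at 2%, 215, 225, 237, 250.2, and 274 at 5%, and 195, 199, 207, 224, and 191 at 10% RPS. All 5 libraries of 10% RPS lay below all 5 of 0% and of 2% RPS, and 4 of 5 libraries of 5% RPS lay below those of 0% RPS. The gene was named because it was called in these data, and the share of all genes separated in this way was not computed. Cdkn1c fell by 0.45 on the log2 scale at 10% RPS (SE 0.10; DESeq2 adjusted p = 0.0016; edgeR adjusted p = 0.0307), less than the 1.5-fold threshold. Its value was -0.02 ± 0.10 at 2% and -0.21 ± 0.10 at 5% RPS (DESeq2 adjusted p = 0.967 and 0.249). Along the doses its slope was -0.048 ± 0.009 per percent of RPS (SE; DESeq2 adjusted p = 0.000181; edgeR adjusted p = 0.0136). The smooth muscle level as a covariate left the value at 10% RPS at -0.44 (DESeq2 adjusted p = 0.00242). With the epithelial and B cell levels it was -0.45 and -0.42 (DESeq2 adjusted p = 0.0170 and 0.0175). For any difference among the 4 diets Cdkn1c was called by DESeq2 (adjusted p = 0.00351) but not by edgeR (adjusted p = 0.114).

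The higher inhibitor was Ccng2, cyclin G2, which is linked to cell cycle arrest and quiescence (chr5:93415116-93424095, plus strand). Normalised counts were 3787, 3531, 3139.9, 2541, and 3243 at 0% RPS, 3809.7, 3137, 4140.4, 3618, and 3757 at 2%, 3604, 4196, 3008, 4320.3, and 3202 at 5%, and 4986, 3749.7, 4560.4, 4055, and 4014 at 10% RPS. At 10% RPS 4 of 5 libraries exceeded the 0% RPS range and replicate 2 lay just inside it. Ccng2 rose by 0.40 ± 0.12 (SE) on the log2 scale at 10% RPS (DESeq2 adjusted p = 0.0282), but not in edgeR (adjusted p = 0.089), and the call was kept in 20 of 29 alternative settings. Leaving out replicate 4 or 5 of 0% RPS or replicate 1, 3, or 5 of 10% RPS ended it, at adjusted p of 0.0576 to 0.118 in DESeq2. The call was also lost with the epithelial or B cell level as a covariate (DESeq2 adjusted p = 0.147 and 0.148). Without the 3 libraries of label numbers apart it was lost as well (DESeq2 adjusted p = 0.0824).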

How the data were processed

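Stranded mRNA libraries of the PC were read from one end over 50 bases. The authors removed bases below Q30 and reads with more than 2 ambiguous bases, aligned the rest to GRCm39 in CLC Genomics Workbench, and deposited whole-number read counts per Ensembl gene, not normalised and not pooled. How strand and multiple matches were counted, on which annotation, and why 12701 genes were kept, is not given in the sources used here. Libraries were assigned to diets by the treatment in their labels. Replicate numbers follow the order of the labels. The p values set differences between diets against the spread between mice, which both tools estimate with information from other genes. Symbols for 12682 genes were taken from GENCODE M39.

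Counts of all 20 libraries were fitted in DESeq2 (version 1.42.0, R version 4.3.3) with diet as the only term, Wald tests of the contrasts, a likelihood ratio test over diets, and a slope on percentage of RPS. P was adjusted by Benjamini-Hochberg over all genes. edgeR (version 4.0.16) quasi-likelihood tests with TMM factors were run on the same designs. Scripts were tested on simulated data. The members and lists were chosen with earlier results of these data known. All members are accounted for, and values in every library were to be given for called members (at most 8) and for 1 gene of each role group (Mki67, Cdk1, Plk1, Cdc20, Kif11, Birc5, Mcm2, Rrm2, Uhrf1, and E2f1). Of the 4 other cell cycle lists, genes called with the fold threshold and up to 5 per list called without it were named, and of the marker lists those called with it (none). Near-identical sequence was measured by searching each 50-base window of a gene in the transcripts of all others. Alternatives were TMM factors, a minimum of 10 counts in 5 libraries, no independent filtering, no fold threshold, only the 2 diets compared, marker covariates, omission of 3 libraries with label numbers apart (748, 753, and 784), omission of each library in turn, and, for the levels, a pseudocount of 0.1 in place of 1, z scores, and levels relative to epithelium. Figures were drawn in matplotlib (version 3.10.9), and tables in pandas (version 2.3.3) under Python (version 3.11.15).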

Additional observations from a re-analysis of the deposited data

Results flagged for a closer look

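In 180 groups of 5 libraries (the 40 members, Cdkn1c, Ccng2, the S phase and G2/M levels, and their difference, each in 4 diets), 2 had 1 library far from the other 4 by Dixon's test, in which chance alone would mark about 1 in 20 groups. Replicate 1 of 5% RPS had 1649 normalised counts of Slbp against 1449 to 1484 in the other 4 libraries of that diet. Replicate 1 of 2% RPS had 318 normalised counts of Cdkn1c against 254.3 to 268 in the other 4.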

How the results depend on the processing

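The count of members called was 0 under each alternative, with or without the fold threshold, with 2 exceptions without it: it was 1 (Cdk1) at 10% RPS when only the 2 diets were fitted, and 1 (Slbp) at 5% RPS without 10% RPS replicate 3, so that it ranged from 0 to 1 over the omissions of single libraries. The causes were not tested. Signs turned for small changes. Mki67 at 5% RPS was -0.054, -0.0052, and -0.056 on the log2 scale with the epithelial, smooth muscle, and B cell level as a covariate, Cdc20 at 10% RPS was -0.074 with the epithelial level, Mcm2 at 10% RPS was -0.0058 with the B cell level, and Plk1 at 10% RPS was -0.15 without the 3 libraries of label numbers apart. Over omissions of single libraries, Mki67 at 5% RPS ranged from -0.11 (without 5% RPS replicate 1) to 0.12, Plk1 from -0.14 to 0.027 at 5% and from -0.038 to 0.13 at 10% RPS, Cdc20 at 5% RPS from -0.16 to 0.017, and Kif11 at 5% RPS from -0.24 to 0.0055. The difference of S phase and G2/M levels from 0% RPS ranged from 0.14 to 0.24 at 2%, from 0.19 to 0.31 at 5%, and from -0.09 to 0.06 at 10% RPS, so that its sign at 10% RPS was not fixed. Cdkn1c kept its call at 10% RPS in 29 of 29 alternatives, at -0.49 to -0.38, and in the trend in 28 of 28. No paired analysis was possible because no replicate number in the labels is shared by mice of different diets. With 5 mice per diet and an SE near 0.20, many changes under 1.5-fold were not detectable, and a change of 1.5-fold could also be missed. A count of 0 members called therefore does not show that no member changed.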
